A study of Mus musculus with 8 samples.

Results

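Collagen and laminin genes were described in whole hippocampus of mice that lack Ctcf in Camk2a-Cre-expressing neurons (CKO), against mice of the same floxed genotype without Cre (WT). Members were the non-control array probes whose gene name has the form of a collagen chain (Col, a type number, a, a chain number) or of a laminin chain (Lama, Lamb or Lamc with a number). Described here are 79 probes of 53 such genes, among the 30139 gene names on the array. They comprised 11 fibrillar collagen chains, 8 collagen chains of basement membranes, 10 laminin chains and 24 other collagen chains. CKO mice were Ctcf loxP/loxP with Camk2a-Cre, a transgene in which the Camk2a promoter drives Cre recombinase in excitatory forebrain neurons, and WT mice were Ctcf loxP/loxP and Cre-negative. All mice were C57BL/6 adults of 3 to 6 months that had been through behavioural tests before tissue collection. Each sample was RNA pooled from 3 mice, with 3 pools per genotype: pool 1 held 2 females and 1 male of 19 to 23 weeks, pool 2 held 3 females of 18 to 19 weeks, and pool 3 held 3 males of 15 to 17 weeks, alike in both genotypes. Both first pools went onto 2 arrays each, which were averaged, so 8 arrays gave 6 pools. Because Cre was present only in CKO mice, effects of Cre and of Ctcf loss cannot be told apart.

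Collagens are trimers of chains wound into a triple helix, and their main forms are fibrils, sheet-like networks and short connecting molecules. In the brain the parenchyma holds few fibrils, and most collagen and laminin lies in the basement membranes of blood vessels and beneath the meninges. There, type IV collagen forms a network that is linked to a laminin network by nidogens and perlecan, and endothelial cells, pericytes, fibroblasts and astrocytes contribute chains. Laminins are cross-shaped trimers of 1 alpha, 1 beta and 1 gamma chain. Excitatory neurons, in which Camk2a-Cre is active, are not known as the main makers of these chains.

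Per array, 59.2% to 66.0% of spots were marked by the scanner software as well above background, and saturated spots numbered 0. The arrays' 75th percentile signal ran from 2112 to 5104, with the lowest on the second array of WT pool 1. That array correlated with its mate at r = 0.954 over 23648 probes, against r = 0.989 for both arrays of CKO pool 1, and differences that it moves most are also given without it. All levels below are log2 signal minus the log2 of the 75th percentile of the same array, and a difference is CKO minus WT on that scale. Ctcf itself read 0.18, 0.16 and 0.05 in the CKO pools and 0.83, 1.12 and 1.04 in the WT pools, a difference of -0.87 (SE 0.13, limma adjusted p = 0.143, or 0.0290 with the pool number as a block). The files do not place this probe relative to the deleted part of Ctcf, so its drop is no measure of how much of the gene was lost. Of 10 markers of hippocampal neurons, 9 were well above background on all 8 arrays, and Prox1 was not measured.

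None of the collagen and laminin genes described passed the test between genotypes. Of the 53 genes, 42 were measured, meaning that a probe was well above background on all 4 arrays of CKO, of WT or of both. In the limma fit over 18336 genes, 0 of the 42 had an adjusted p under 0.05, against 0.0273% of all genes tested (5 genes), and the smallest adjusted p among the members was 0.640, for Col6a1. With the pool number as a block the members called were again 0, against 0.573% of all genes, and the smallest adjusted p was 0.206. An unadjusted limma p under 0.05 was found for 5 of the 42, against 5.48% of all genes. They were 3 higher members (Col4a1, Col4a2 and Col20a1) and 2 lower ones (Col6a1 and Col22a1), where 2.92% of all genes were higher and 2.56% lower. The CKO and WT pools did not overlap for 5 higher members (those 3, Col5a1 and Col6a3) and for the same 2 lower ones, against 5.72% of all genes higher and 5.63% lower, and with 3 pools against 3 an exact permutation test cannot give a p under 0.1. The arrays lay on 2 slides, the first arrays of pool 1 with pool 2 on slide 1 and the repeat arrays of pool 1 with pool 3 on slide 2, so each slide held both genotypes. With the slide as a term in the fit 0 members passed. Within slide 1 and within slide 2, Col4a1, Col4a2, Col20a1, Col6a1 and Col22a1 kept their direction, with differences of 0.35 and 0.42 for Col4a1, 0.37 and 0.43 for Col4a2, 0.59 and 0.21 for Col20a1, -0.55 and -0.38 for Col6a1 and -0.86 and -0.42 for Col22a1. These 5 were picked by their p over the same pools, and both slides hold pool 1. The kept direction is therefore a description and no separate test of them. The median difference of the 42 was 0.074, against -0.0032 over all genes, with 24 members higher and 18 lower in CKO pools, where 49.4% of all genes were higher.

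Detection was uneven among the dimmer members. Of the 42 measured genes, 33 were well above background on all 8 arrays. The other 9 (Col2a1, Col11a1, Col4a3, Col17a1, Col9a3, Col12a1, Col19a1, Col14a1 and Col9a1) were above background on all 4 CKO arrays and on 2 or 3 of the 4 WT arrays, and so entered only through the CKO arrays. The reverse pattern was found for 0 members. Over all genes tested, 5.45% entered only through the CKO arrays and 0.594% only through the WT arrays. The second array of WT pool 1, on which the fewest spots were above background, was missed by 8 of the 9 members and was the only array missed by 6 of them. It was likewise the only array missed by 761 of the 1000 genes that entered only through CKO. Because these 9 had to be detected in CKO to enter, counts over the 42 are descriptions only. Over the 33 detected on all arrays, 18 were higher and 15 lower in CKO pools, with a median of 0.065.

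**Figure D1:**
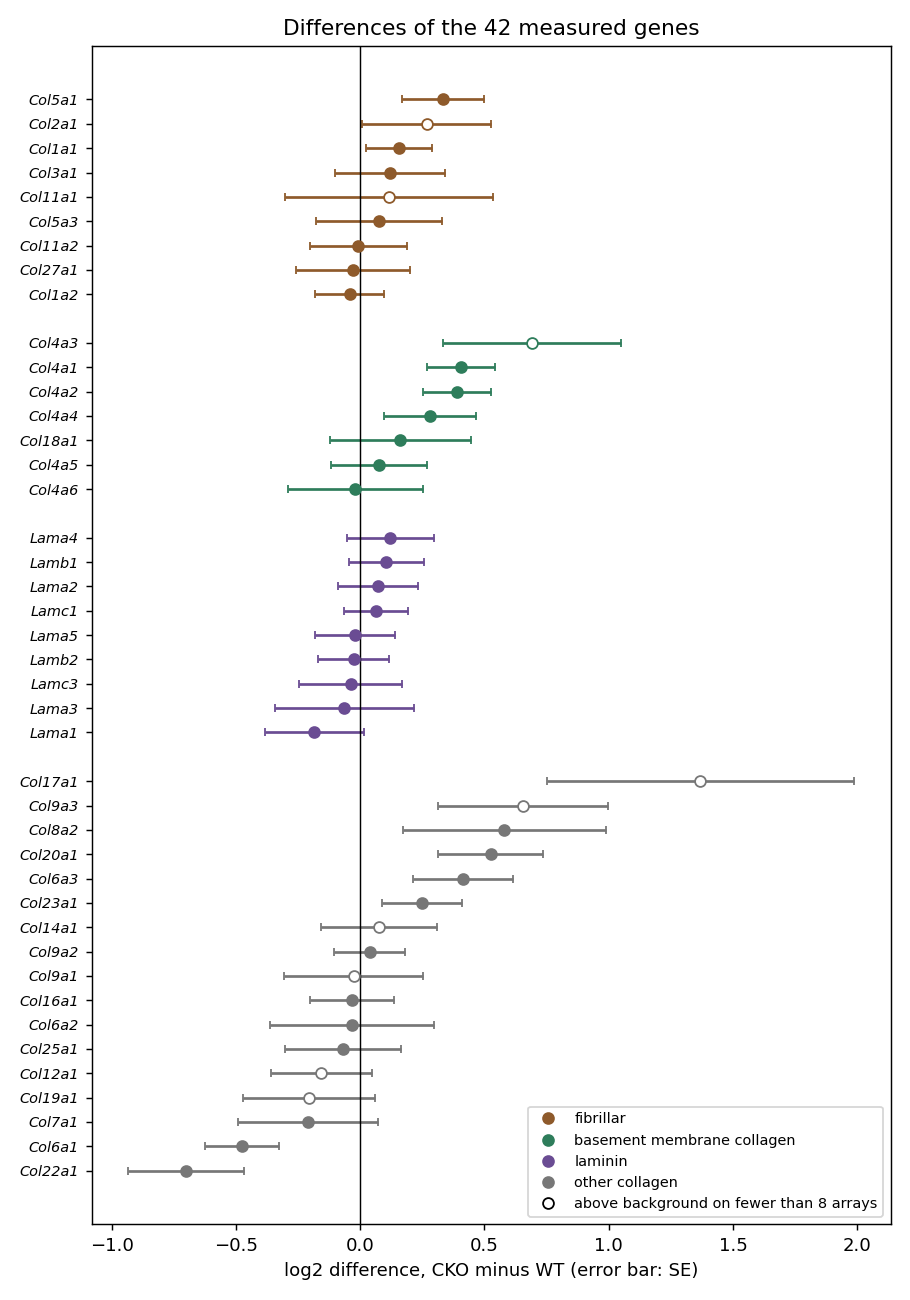
Difference of each of the 42 measured genes, CKO minus WT, in log2 units, with its SE as error bar (3 pools per genotype), grouped by class and sorted within it. Open symbols mark the 9 genes above background on fewer than 8 arrays; the 9 laminins lie between -0.18 and 0.12, and 6 of the 7 basement membrane collagens lie above 0.

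The collagen chains of basement membranes were higher in CKO pools for 6 of the 7 measured genes, with a median difference of 0.28, and none passed the test. One of the 6, Col4a3, entered only through the CKO arrays, and over the 6 genes above background on all 8 arrays, 5 were higher, with a median of 0.22. Col4a1 and Col4a2 encode the pair of chains that make up the common type IV collagen trimer of nearly all basement membranes, and they had the 2 smallest unadjusted p-values of this class. Col4a1 read -0.44, -0.43 and -0.30 in the CKO pools and -0.76, -0.75 and -0.89 in the WT pools. Its CKO pools lay close together and above all WT pools. The difference was 0.41 (SE 0.14, 95% interval 0.09 to 0.72), a ratio of 1.33, with a limma unadjusted p of 0.0167 and an adjusted p of 0.729. Col4a2 read -0.59, -0.60 and -0.52 in the CKO pools and -1.01, -0.86 and -0.998 in the WT pools. All 3 CKO pools again stood above all WT pools, and the spread within each genotype was small beside the gap. The difference was 0.39 (SE 0.14, 95% interval 0.07 to 0.70), a ratio of 1.31, with a limma adjusted p of 0.775. When each pool was left out in turn the difference stayed between 0.36 and 0.43 for Col4a1 and between 0.36 and 0.44 for Col4a2, and the CKO and WT pools stayed apart for both under the 4 other scalings or background corrections tried.

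Col4a1 and Col4a2 lie head to head on chromosome 8 and are transcribed in opposite directions from neighbouring starts. Their RefSeq promoter windows (250 bases before to 50 after each start, build GRCm38.p6) are shown because they hold a stretch in common. The pair was picked after its differences were seen, and whether this sequence has a part in them was not tested. The windows span chr8:11312777-11313076 on the minus strand for Col4a1 and chr8:11312555-11312854 on the plus strand for Col4a2, and the 78 bases that both windows hold are in capitals, read from opposite strands.
Col4a1: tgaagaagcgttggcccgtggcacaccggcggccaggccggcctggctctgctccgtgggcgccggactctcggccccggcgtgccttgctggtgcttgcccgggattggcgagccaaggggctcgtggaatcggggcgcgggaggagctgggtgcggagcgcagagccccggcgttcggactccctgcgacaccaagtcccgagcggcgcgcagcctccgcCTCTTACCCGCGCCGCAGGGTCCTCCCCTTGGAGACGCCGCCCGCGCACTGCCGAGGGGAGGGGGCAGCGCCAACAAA
Col4a2: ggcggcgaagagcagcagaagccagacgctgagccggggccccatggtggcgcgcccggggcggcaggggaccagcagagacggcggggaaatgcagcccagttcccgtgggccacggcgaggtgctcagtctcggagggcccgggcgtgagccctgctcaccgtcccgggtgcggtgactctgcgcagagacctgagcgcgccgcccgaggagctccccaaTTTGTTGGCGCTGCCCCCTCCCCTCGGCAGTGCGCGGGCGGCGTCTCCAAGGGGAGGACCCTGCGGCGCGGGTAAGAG
The letters GGGCGG, the core of a GC box, were searched on both strands of such windows. They were present in 25 of the 40 member genes with a window (62.5%), Col4a1 and Col4a2 among them, against 38.2% of 27025 genes. The letters TATAAA, on the gene's strand, were in 5 of the 40 (12.5%) and in 9.77% of all genes, and in neither of this pair. These matches describe the letters in the window only.

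The other basement membrane chains were closer between the genotypes relative to their spread. Col4a3 and Col4a4 encode chains of a type IV trimer known from the kidney glomerulus. Col4a3, above background on 4 CKO and 2 WT arrays, read -4.53, -4.60 and -5.09 in the CKO pools and -6.15, -5.26 and -4.87 in the WT pools. The pools overlapped, and WT pool 1, with neither array above background, was the lowest. Its difference was 0.69 (SE 0.36), which was 0.33 without WT pool 1. Col4a4 read -2.44, -2.56 and -2.79 in the CKO pools and -2.91, -2.97 and -2.74 in the WT pools, with a difference of 0.28 (SE 0.19), or 0.48 without the second array of WT pool 1. Its CKO pool 3 fell within the WT range. Col18a1, the core protein of a heparan sulfate proteoglycan and source of endostatin, differed by 0.16 (SE 0.28), by -0.14 without WT pool 1 and by 0.065 without only its second array. Col4a5 differed by 0.08 (SE 0.19), and Col4a6 by -0.02 (SE 0.27) with its other measured probe at -0.01. Without the second array of WT pool 1 the difference of Col4a6 was 0.32. The remaining chain, Col15a1, which links basement membranes to the fibrils around them, was not well above background with any of its 3 probes on any of the 8 arrays.

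Among the laminins, 9 of the 10 chains described were measured, all on all 8 arrays, with 4 higher and 5 lower in CKO pools, a median difference of -0.021 and no unadjusted limma p under 0.05. Lamc1, the gamma chain of most laminins, read 1.09, 0.98 and 1.21 in the CKO pools and 1.03, 0.90 and 1.16 in the WT pools. The pools overlapped fully, and the difference was 0.06 (SE 0.13, 95% interval -0.23 to 0.36). Lamb1 read 0.84, 0.90 and 0.95 in the CKO pools and 0.52, 0.86 and 0.99 in the WT pools, a difference of 0.11 (SE 0.15), or 0.034 without the second array of WT pool 1. Lama4, the alpha chain of endothelial laminin, differed by 0.12 (SE 0.18). Lama2, the alpha chain that astrocytes and pericytes contribute and that is mutated in a congenital muscular dystrophy, differed by 0.07 (SE 0.16), or 0.18 without the same array, and its other measured probe by 0.04. Lama1, which meningeal cells make, read -2.04, -1.92 and -1.95 in the CKO pools and -1.97, -1.97 and -1.42 in the WT pools. Only WT pool 3 stood off, and the difference was -0.18 (SE 0.20), or -0.00083 without that pool. The 95% intervals of the other 4 genes ran from -0.24 to 0.45 for Lamb1, from -0.28 to 0.52 for Lama4, from -0.30 to 0.44 for Lama2 and from -0.64 to 0.27 for Lama1. Lama3 read -1.03, -1.26 and -1.25 in the CKO pools and -0.47, -1.64 and -1.24 in the WT pools. WT pool 1 was the highest and WT pool 2 the lowest of all, and the difference was -0.06 (SE 0.28), or 0.21 without the second array of WT pool 1. Lamb2 at -0.03, Lamc3 at -0.04 and Lama5 at -0.02 were the remaining measured chains, and Lamb3 was above background on 1 array and was not measured.

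**Figure D2:**
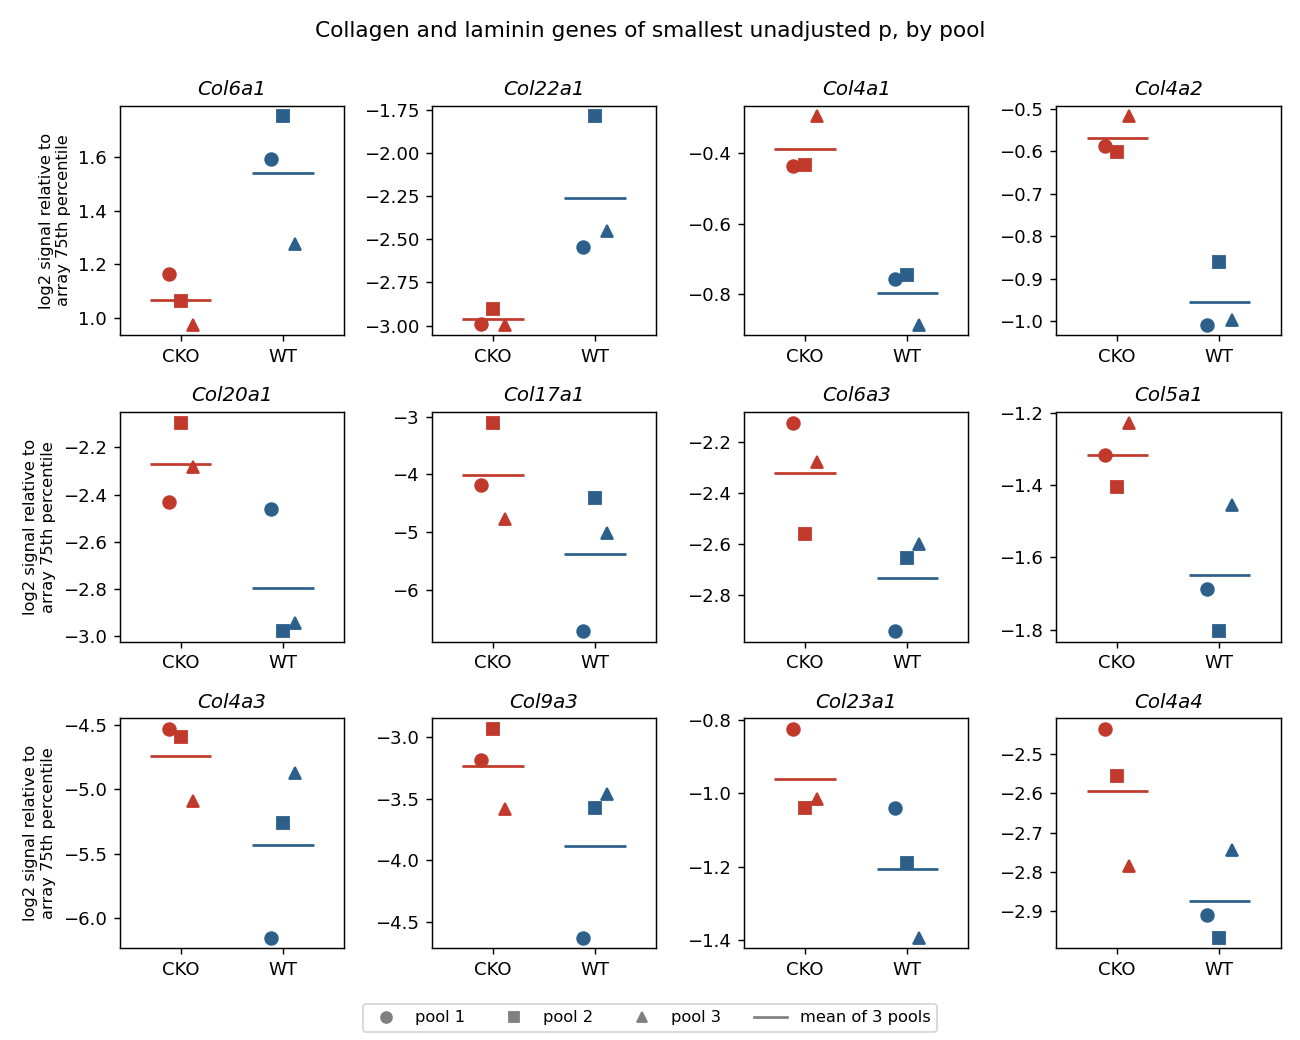
Level of the 12 members with the smallest unadjusted p in each pool (log2 signal relative to the array's 75th percentile), with CKO left of WT in each panel; symbols mark the pool number, horizontal lines the mean of 3 pools, and each panel has its own scale. The CKO and WT pools do not overlap for Col6a1, Col22a1, Col4a1, Col4a2, Col20a1, Col6a3 and Col5a1; WT pool 1 is the lowest of the 6 pools in Col17a1, Col4a3, Col9a3, Col6a3 and Col4a2.

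The fibrillar collagens, which form the cross-banded fibrils of connective tissue, were measured for 9 of 11 genes, with 6 higher and 3 lower in CKO pools and a median of 0.11. Col2a1 and Col11a1, both among the higher, entered only through the CKO arrays. Over the 7 genes above background on all 8 arrays, 4 were higher and 3 lower, with a median of 0.076. None of the 9 had an unadjusted p under 0.05. Col5a1, a chain of the type V collagen that sits inside type I fibrils and sets their width, read -1.31, -1.40 and -1.23 in the CKO pools and -1.69, -1.80 and -1.45 in the WT pools. The pools did not overlap, although the gap was narrower than the spread within either genotype, and the difference was 0.33 (SE 0.16, limma adjusted p = 0.978). Under quantile scaling, median scaling, normexp background correction and the authors' deposited value table its pools overlapped. Col1a1 and Col1a2 encode both chains of type I collagen. Col1a1 read 0.81, 1.02 and 0.68 in the CKO pools and 0.67, 0.74 and 0.63 in the WT pools. CKO pool 3 was within the WT range, and the difference was 0.16 (SE 0.13, 95% interval -0.15 to 0.46). Col1a2 read 2.28, 2.18 and 1.90 in the CKO pools and 2.30, 2.10 and 2.09 in the WT pools. Its genotypes overlapped and the difference was -0.04 (SE 0.14, 95% interval -0.36 to 0.27). Col3a1, the type III chain of vessel walls and reticular fibrils, differed by 0.12 (SE 0.22), and Col5a3 by 0.08 (SE 0.25). Col2a1, the cartilage chain, differed by 0.27 (SE 0.26) and was above background on 4 CKO and 3 WT arrays. Col11a1 at 0.11 (-0.41 without WT pool 1), Col27a1 at -0.03 and Col11a2 at -0.01 were the remaining measured genes. Col5a2 was above background on 1 array and Col24a1 on 4, and neither was measured.

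The other collagens were measured for 17 of 24 genes, with 8 higher and 9 lower in CKO pools and a median of -0.027. Over the 11 genes above background on all 8 arrays, 5 were higher and 6 lower, with a median of -0.033. Type VI collagen, whose beaded filaments lie beside basement membranes, was measured for its 3 main chains. Col6a1 read 1.16, 1.06 and 0.97 in the CKO pools and 1.59, 1.75 and 1.28 in the WT pools. Each CKO pool was lower than each WT pool, and the difference was -0.48 (SE 0.15, 95% interval -0.82 to -0.13, limma unadjusted p = 0.0122, adjusted p = 0.640). Col6a3 read -2.12, -2.56 and -2.28 in the CKO pools and -2.94, -2.65 and -2.60 in the WT pools. Here the CKO pools lay above the WT pools, CKO pool 2 narrowly so, and the difference was 0.41 (SE 0.20, limma adjusted p = 0.973). The Col6a3 pools overlapped under quantile scaling, median scaling, normexp and the authors' deposited value table. Col6a2 read -3.83, -3.87 and -3.68 in the CKO pools and -2.97, -4.18 and -4.12 in the WT pools. WT pool 1 was the highest, the other WT pools were the lowest, and the difference was -0.03 (SE 0.33), or 0.30 without the second array of WT pool 1. Whether the 3 chains differ from each other was not tested. Of the further type VI chains, Col6a4 was above background on 2 arrays and Col6a5 and Col6a6 on 0, and none was measured.

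Fibril-associated collagens bridge fibrils and other matrix proteins. Col22a1, known from tissue junctions such as those of muscle and tendon, read -2.99, -2.90 and -3.00 in the CKO pools and -2.55, -1.79 and -2.45 in the WT pools. The CKO pools were level and below every WT pool, of which pool 2 stood highest. The difference was -0.70 (SE 0.23, limma unadjusted p = 0.0165, adjusted p = 0.729), and -0.46 when WT pool 2 was left out. Col20a1 read -2.43, -2.09 and -2.28 in the CKO pools and -2.46, -2.98 and -2.94 in the WT pools. The genotypes touched at pool 1, where CKO was higher than WT by a small margin, and the difference was 0.53 (SE 0.21, limma adjusted p = 0.852). It was 0.70 without the second array of WT pool 1, with a limma adjusted p of 0.0726. Under the 4 other scalings or background corrections its pools overlapped, with differences from 0.42 to 0.47. A dimmer probe of Col20a1, above background on 4 CKO and 3 WT arrays, ran from -3.63 to -3.06 on the CKO arrays and from -4.29 to -3.98 on the WT arrays. Its difference was 0.75 (SE 0.23), and as it passed the detection filter only through the CKO arrays, this is a description only. Col9a3 differed by 0.65 (SE 0.34) and by 0.28 without WT pool 1. Col9a1 at -0.03, Col9a2 at 0.04, Col12a1 at -0.16, Col14a1 at 0.07 (0.46 without the second array of WT pool 1), Col16a1 at -0.03 and Col19a1 at -0.21 had SEs from 0.14 to 0.28.

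Among the transmembrane collagens, Col17a1, a component of the hemidesmosomes that tie epithelial cells to the matrix, was above background on 4 CKO and 2 WT arrays. It read -4.18, -3.10 and -4.77 in the CKO pools and -6.72, -4.41 and -5.02 in the WT pools. The pools overlapped, and WT pool 1 stood far below the rest. Its difference was 1.37 (SE 0.62, limma adjusted p = 0.929), and 0.70 without WT pool 1. Its probe was above background on neither array of WT pool 1, so that pool gave a reading at background and the size of the difference is uncertain. Col23a1 differed by 0.25 (SE 0.16) with the brightest probe and by 0.50 (SE 0.19) with another. That other probe was above background on all 8 arrays, and its limma unadjusted p was 0.0261 with every probe fitted. It did not pass after adjustment. Its CKO pools lay above its WT pools, but the second array of WT pool 1 (-0.74) read above CKO pools 2 and 3 (both -0.97). Col25a1, the precursor of a peptide found in amyloid plaques, differed by -0.07 with the brightest probe and by 0.08 with another, and was the only member whose measured probes disagreed in sign. Col13a1 was above background on 1 array and was not measured. The short-chain collagen Col8a2 read -1.02, -0.84 and -1.19 in the CKO pools and -2.67, -1.25 and -0.87 in the WT pools. Only WT pool 1 was apart, and the difference of 0.58 (SE 0.41) was 0.04 without it. Its partner chain Col8a1 was above background on 5 arrays, Col10a1 and Col28a1 on 1 each, and these were not measured. Col7a1, the anchoring fibril chain of skin, differed by -0.21 (SE 0.28).

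The sequence of a collagen helix repeats a glycine in every Gly-X-Y triplet of residues, and glycine codons begin with GG. A search for GG at 5 or more positions spaced 9 bases apart found 3 of the 79 member probes (3.80%), against 25 of all 39429 probes (0.0634%). They are printed, from the array's own probe column, to show what the helix looks like in the measured strand, with the spaced GG pairs in capitals.
Col15a1: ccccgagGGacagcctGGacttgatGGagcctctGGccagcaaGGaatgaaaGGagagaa
Col16a1: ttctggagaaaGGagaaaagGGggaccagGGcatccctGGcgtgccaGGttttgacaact
Col25a1: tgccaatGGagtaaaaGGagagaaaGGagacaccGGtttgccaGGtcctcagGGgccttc
These 3 probes were above background on 0, 1 and 0 of the 8 arrays. Other probes gave Col16a1 and Col25a1 their values above, so no result here rests on a probe of this kind.

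The level of each class was also set beside marker lists of the cells that make matrix. Averaged over its 7 genes and relative to the mean of the WT pools, the basement membrane collagen class read 0.40, 0.30 and 0.16 in the CKO pools and -0.13, 0.01 and 0.12 in the WT pools. Over the 6 genes above background on all 8 arrays, which leaves out Col4a3, it read 0.31, 0.21 and 0.12 in the CKO pools and -0.03, -0.01 and 0.05 in the WT pools. The classes of fibrillar and of other collagens overlapped between the genotypes, as did the laminins. The 13 endothelial markers read 0.08, 0.12 and -0.04 in the CKO pools and 0.01, 0.0016 and -0.01 in the WT pools, with 11 of 13 genes higher in CKO and a median difference of 0.033. The 10 measured mural cell markers read 0.17, 0.22 and -0.05 in the CKO pools and 0.30, -0.04 and -0.26 in the WT pools. Of these mural markers, 9 were higher and 1 lower in CKO, with a median difference of 0.066. Among the higher genes, Kcnj8 entered only through the CKO arrays, as did Tie1 of the endothelial list. The 14 markers of meningeal and perivascular fibroblasts read 0.12, 0.03 and -0.34 in the CKO pools and 0.06, -0.04 and -0.01 in the WT pools, with 2 of 14 genes higher in CKO. The 7 oligodendrocyte markers read 0.28, 0.30 and 0.19 in the CKO pools and 0.0065, -0.08 and 0.07 in the WT pools, with 7 of 7 higher in CKO. The 9 measured markers of hippocampal neurons read -0.33, -0.28 and -0.15 in the CKO pools and 0.03, 0.08 and -0.10 in the WT pools, with 3 of 9 higher in CKO and a median difference of -0.094. Its mean was set largely by C1ql2 (-1.10), Wfs1 (-0.91) and Bcl11b (-0.59), while the other 6 genes lay between -0.10 and 0.29. For the basement membrane collagens, with or without Col4a3, for the oligodendrocyte markers and for the mean of the neuronal markers, the CKO and WT pools did not overlap, and a part of cell makeup in the collagen values was not tested. The astrocyte, microglia and thalamus lists overlapped between the genotypes, with median differences of 0.025, 0.14 and -0.31. In bulk tissue, fewer cells of a type and less RNA per cell cannot be told apart.

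Of the marker lists, that of the choroid plexus varied most between pools of a genotype. Its 15 genes read 0.90, 0.96 and 0.52 in the CKO pools and -1.12, 0.41 and 0.71 in the WT pools, with 15 of 15 higher in CKO and a median of 0.79. All 15 were measured and 13 were above background on all 8 arrays. WT pool 1, the lowest for this list on both of its arrays (-1.05 and -1.20), was also the lowest of the 6 pools for 16 of the 42 members (38.1%), against 25.8% of all genes. Among them were Col8a2, Col17a1, Col9a3, Col18a1, Col4a3 and Col11a1, and also Col4a2 and Col6a3. Col17a1, Col9a3, Col4a3, Col11a1, Col2a1, Col12a1 and Col9a1, all among the 16, entered only through the CKO arrays. The filter thus favoured a low WT pool 1 for them. Such genes were 21.4% of the members and 5.45% of all genes, so both shares are descriptions only. The part of choroid plexus tissue in the differences of the 16 members was not tested. Without WT pool 1 the differences of Col4a1 and Col4a2 were 0.43 and 0.36, against 0.41 and 0.39 with it. For the choroid plexus list the remaining WT pools read 0.41 and 0.71, against 0.52 to 0.96 in the CKO pools. Leaving out WT pool 1 is thus no test of that tissue's part.

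**Figure D3:**
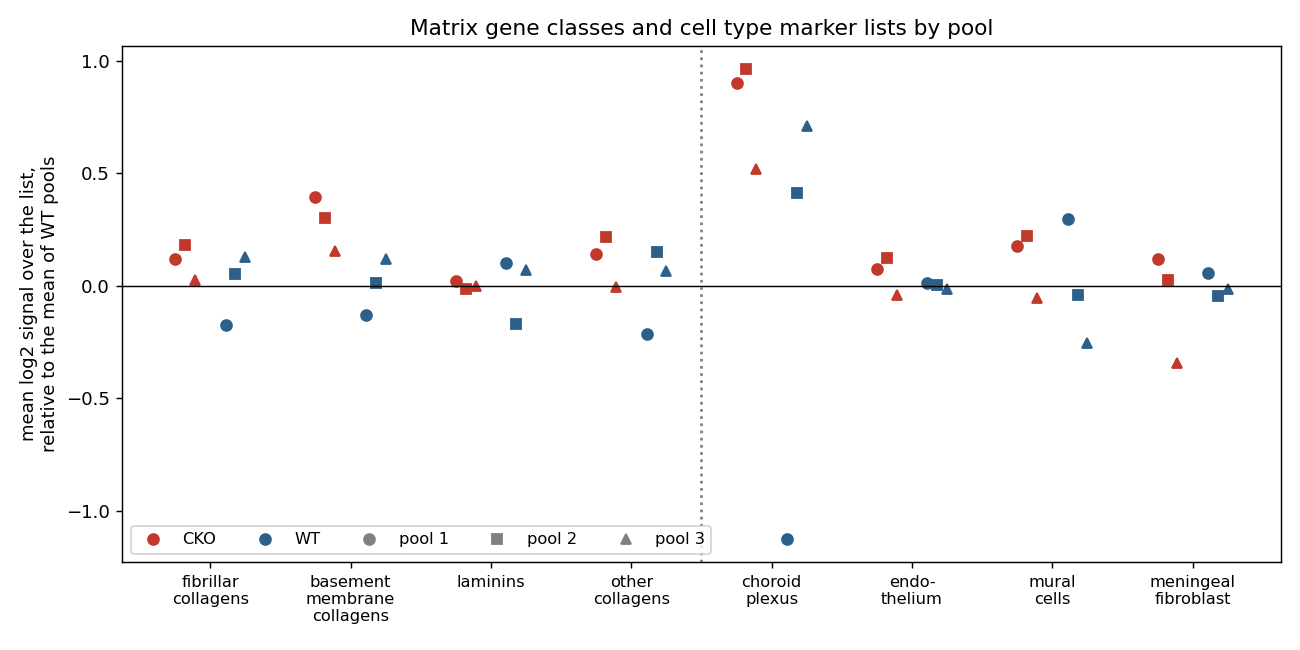
Mean log2 signal of each matrix gene class (left of the dotted line) and of 4 marker lists (right) in every pool, relative to the mean of the WT pools, CKO left of WT in each pair and symbols by pool number. WT pool 1 lies at -1.12 for the choroid plexus list, and the CKO pools of the basement membrane collagens, 0.16 to 0.40, lie above the WT pools.

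Genes that modify, bind or cut collagens and laminins were counted from 4 lists, and none passed the limma test at an adjusted p under 0.05. Of 25 collagen processing genes 21 were measured, 15 higher and 6 lower in CKO pools, with a median of 0.074. Of the 21, 19 were above background on all 8 arrays, and P3h2 (higher) and Adamts2 (-0.19) entered only through the CKO arrays. P3h2, a prolyl 3-hydroxylase known to act on type IV collagen, read -3.12, -3.40 and -3.31 in the CKO pools and -4.63, -4.29 and -4.63 in the WT pools. The pools did not overlap, but the probe was above background on 4 CKO and 3 WT arrays, and so passed the detection filter only through CKO. The difference was 1.24 (SE 0.21), a ratio of 2.36, with a limma adjusted p of 0.156, of 0.0463 with the pool number as a block and of 0.0252 without the second array of WT pool 1, a fit that called 0.589% of all genes. Because P3h2 entered through the genotype in which it was higher, its difference and p-values are descriptions only. P3h3, of the same enzyme family, differed by 0.40 (SE 0.14), Loxl1, which cross-links elastin and collagen, by 0.55 (SE 0.20), and Colgalt2, which adds galactose to hydroxylysine, by -0.47 (SE 0.20). The pools did not overlap for these 3, and the limma adjusted p ran from 0.774 to 0.895.

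Of 15 degradation genes, which are proteases that cut matrix and their inhibitors, 11 were measured, with 8 higher in CKO pools and a median of 0.18. Of the 11, 8 were above background on all 8 arrays. Mmp2, Mmp14 (0.39) and Mmp19 (0.22), all higher, entered only through the CKO arrays, so the count and median are descriptions only. Timp1, an inhibitor of matrix metalloproteinases, read -1.80, -0.47 and -2.08 in the CKO pools and -3.00, -3.39 and -3.51 in the WT pools. Every CKO pool was above every WT pool, and CKO pool 2 was the highest. The difference was 1.85 (SE 0.39), a ratio of 3.60, with a limma adjusted p of 0.252, or 0.0266 with the pool number as a block. Mmp2, a gelatinase that cuts type IV collagen, differed by 0.69 (SE 0.27) without overlap of the pools and was above background on 3 of 4 WT arrays. Its probe passed the detection filter only through the CKO arrays, so this is a description only. Fap differed by 0.46 (SE 0.33) and Reck, a membrane inhibitor of metalloproteinases, by -0.36 (SE 0.28).

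Of 13 basement membrane partners 10 were measured, 6 higher and 4 lower, with a median of 0.091. Of the 10, 9 were above background on all 8 arrays, and Nid2 (0.25) entered only through the CKO arrays. Sparc, a collagen-binding protein, differed by 0.36 (SE 0.19), Hspg2, which encodes perlecan, by 0.31 (SE 0.19), Agrn, which encodes agrin, by -0.33 (SE 0.16) and Smoc2 by -0.19 (SE 0.12). Of 15 receptors 11 were measured, 7 higher and 4 lower, with a median of 0.071. Itga11, a collagen-binding integrin chain, read -1.20, -1.34 and -0.64 in the CKO pools and -1.60, -1.82 and -1.75 in the WT pools, a difference of 0.66 (SE 0.21, limma adjusted p = 0.656). Lair1, an inhibitory collagen receptor of leukocytes, differed by 0.47 (SE 0.20), and the pools of both genes did not overlap. The laminin receptors Dag1, which encodes dystroglycan, and Bcam differed by 0.39 (SE 0.25) and 0.38 (SE 0.25). Counted by list, pools did not overlap for 3 higher and 1 lower processing genes and for 2 higher and 0 lower degradation genes. The higher ones include P3h2 and Mmp2, which passed the detection filter only through the CKO arrays, so the counts of these lists are descriptions only. The counts were 0 higher and 1 lower (Smoc2) for the partners, and 2 higher and 1 lower (Itga6, -0.21) for the receptors. Over all genes tested, 5.72% were higher and 5.63% lower without overlap.

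The repeat arrays of pool 1 carried the same RNA as its first arrays but lay on the other slide. Differences between both arrays thus hold slide effects as well as measurement error. For the 42 members the median absolute difference between both arrays was 0.19 in CKO pool 1 and 0.37 in WT pool 1, against 0.22 and 0.51 over all genes. Differences above 0.5 were found for 3 members in CKO pool 1 and for 16 in WT pool 1, where 50.6% of all genes exceeded it. The largest in WT pool 1 were 2.32 for Col14a1, 2.03 for Col4a6, 2.01 for Col6a2 and 1.67 for Lama3, with the second array higher for each. In CKO pool 1 the second array was also higher for each, by 0.60, 0.73, 0.25 and 0.81. Lama3 read -1.30 on the first and 0.37 on the second array of WT pool 1. The WT pool 1 level of these 4 genes therefore depends on which array is read. Without the second array of WT pool 1, the difference of 11 members changed sign, each of them within 0.11 of 0 with all arrays, and that of another 11 kept its sign and moved by over 1.5 times.

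**Figure D4:**
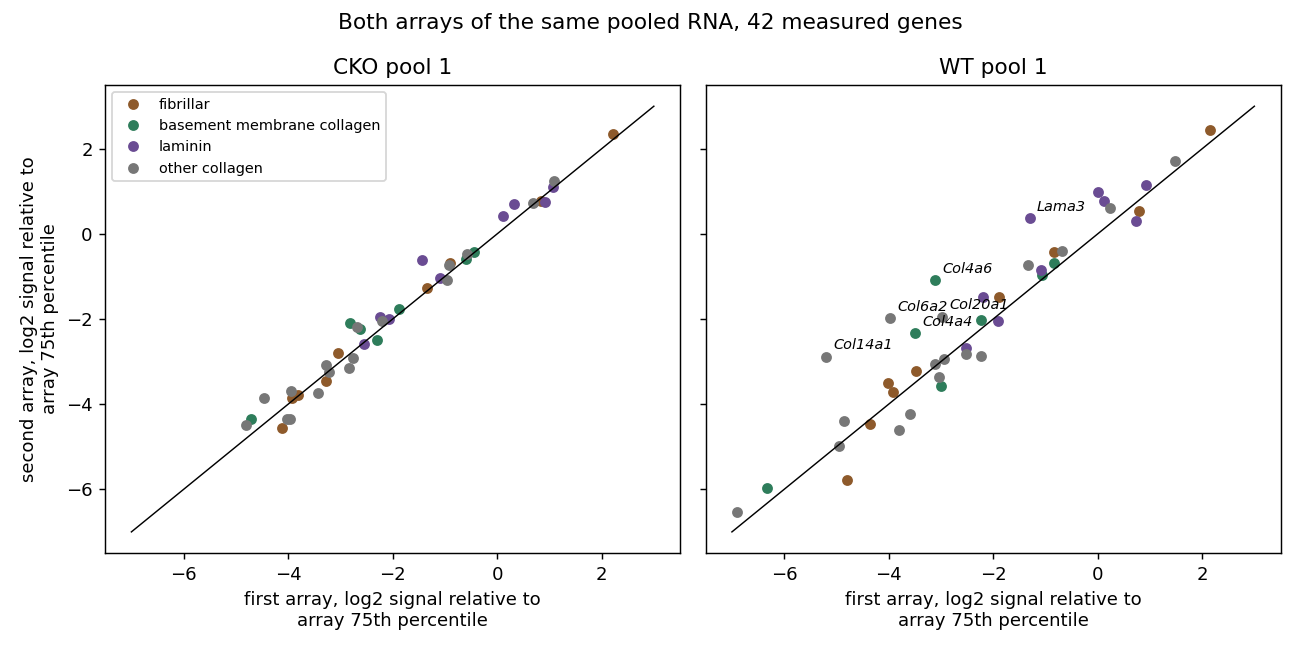
Second array against first array of the same pooled RNA for the 42 measured genes, in CKO pool 1 (left) and WT pool 1 (right), as log2 signal relative to each array's 75th percentile; the line marks equal values and genes more than 1 unit apart are named. Points lie closer to the line in CKO pool 1 (r = 0.989 over all probes kept) than in WT pool 1 (r = 0.954).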

How the data were processed

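RNA of 6 pools was hybridised in the Cy5 channel to 8 Agilent arrays on 2 slides. The deposited scanner files hold spot intensity from Agilent Feature Extraction (version 11.5 in the submitters' processing notes, 11.5.1.1 in the files). Background subtraction and detrending within each array, with no normalization across arrays, had been applied to the processed intensity, per the file headers. The authors' deposited value table of linear intensity was an alternative, and how its arrays were scaled is not stated in these sources. The other deposited columns used were flags of 0 or 1.

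From these, log2 processed signal minus the array's 75th percentile was computed. Outlier spots were dropped, repeat spots and repeat arrays of a pool were averaged, and 23648 of 39429 probes passed the detection filter (well above background on all 4 arrays of CKO or of WT), with the brightest probe standing for a gene. The two-sided test was limma 3.58.1 (lmFit, eBayes with a trend) under R 4.3.3, with p-values adjusted by Benjamini-Hochberg over 18336 genes and called at 0.05. The fit was tested on simulated data. Levels of different probes are not comparable.

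Members and lists were chosen with earlier results of these data known, and some genes that the rule takes are not reported here. In each class the 6 measured members of smallest p, and in each partner list 4, were described first, and other members follow by their difference. The RefSeq tables are of build GRCm38.p6 and the array design of mm9, so no probe coordinates are given. Same-numbered pools deviated together (correlations over genes 0.55, 0.33 and 0.13, against at most 0.12 between different numbers), and the labels give them the same sex and age makeup, so the pool number was also fitted as a block. The pools held different mice. SEs, intervals and limma p-values are moderated: they combine each gene's own spread between 3 pools with a variance trend fitted over all genes. The 20 alternatives were other scalings, background correction, filters, slides, arrays, pools left out, weights, and every probe fitted.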

Additional observations from a re-analysis of the deposited data

How the results depend on the processing

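Of the 24 genes described first, 15 kept the direction of their difference in all 19 alternatives fitted per gene, among them Col4a1, Col4a2, Col6a1, Col22a1, Col20a1 and Col5a1. With the pool number as a replicate block, 0 members passed in either direction and no member's call changed. In each other alternative fitted per gene, leaving out each pool in turn included, the counts past the threshold were also 0 higher and 0 lower. With every probe fitted separately, no member probe passed. The count of higher members whose pools did not overlap (5, against 5.72% of all genes) was 2 under quantile scaling (5.39% of all genes), 3 under median scaling (3.7%) and 2 in the authors' deposited table (5.18%). It was 8 without the second array of WT pool 1 (11.9%), 24 within slide 1 (22%, 2 pools per genotype) and 5 to 11 when a pool was left out (8.05% to 20%). The count of 11 was without CKO pool 3 (9.58%), and the share of 20% was without WT pool 1, where the count was 9. The lower count (2, against 5.63%) was 4 without a filter on dim probes (4.28%), 1 with the slide as a term (3.37%), 4 within slide 1 (19.1%) and 2 to 6 when a pool was left out (7.54% to 18.9%). The basement membrane collagen median was 0.40 both with first arrays and without the second array of WT pool 1, and 0.20 to 0.36 when a pool was left out. The laminin median was 0.12 within slide 1, -0.14 within slide 2, 0.094 without the second array of WT pool 1, and -0.060 to 0.067 when a pool was left out, and that of the other collagens was 0.17 within slide 1. The direction turned for 9 genes, each with a difference within its own SE: within slide 2 for Col3a1 (-0.060), Col4a5 (-0.068) and Lama2 (-0.14); with array weights for Col5a3 (-0.13), Col18a1 (-0.10), Col4a5 (-0.059), Lamb1 (-0.026) and Col1a2 (0.0034); for Col1a2 also with normexp (0.020), in the authors' deposited table (0.043), within slide 1 (0.070) and without the second array of WT pool 1 (0.0067); and for Lama3 within slide 1 (0.13), with first arrays (0.079), without the second array of WT pool 1 (0.21) and with array weights (0.10). With a pool left out the range was -0.12 to 0.068 for Col1a2, -0.16 to 0.23 for Col5a3, -0.14 to 0.33 for Col18a1, -0.0020 to 0.21 for Col4a5, -0.031 to 0.21 for Lamb1, -0.00039 to 0.13 for Lamc1, -0.060 to 0.22 for Lama2 and -0.33 to 0.26 for Lama3. The cause of these changes was not tested. Precision was limited by 3 pools per genotype and, for the 9 members not above background on every array, by signal near background.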
